A study of Mus musculus with 12 samples.

Results

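The 10 genes described here encode chaperones and co-chaperones of the heat shock family: Hspa1a, Hspa1b, Hspa8, Hsph1, Dnajb1, Hsp90aa1, Hsp90ab1, Ahsa1, Hspd1 and Hspe1. They were picked by gene symbol from a deposited table of 24062 gene entries, and all 10 were present in it. Bulk mRNA had been sequenced from macrophages grown out of the bone marrow of wild-type C57Bl/6 mice and used at passage 1. The 4 groups held 3 libraries each: cells given C-178 together with CMA, cells given CMA alone, cells given C-178 alone, and unstimulated cells. CMA is a small molecule that switches on mouse STING, an adaptor protein of innate immunity that responds to cyclic dinucleotides, and C-178 binds STING covalently and blocks it. Cells were exposed for 2 h according to the labels, and the sources used here state no dose, no age of the mice and no number of separate cultures. P-values therefore measure the spread between these libraries, which may be technical. Each C-178+CMA library is also read on its own, since these libraries lay further apart than those of any other group (median SD over all tested genes 0.34 on the log2 scale, against 0.15 with CMA, 0.18 with C-178 and 0.12 in unstimulated cells).

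Heat shock proteins bind unfolded or partly folded proteins and help them reach or regain their fold. HSP70 proteins cycle on and off their clients with the help of J-domain proteins and nucleotide exchange factors and can pass clients on to HSP90, while HSP60 and its lid HSP10 fold proteins inside mitochondria. Protein damage activates the transcription factor HSF1, which binds heat shock elements, repeats of the unit nGAAn in alternating orientation, in front of many of these genes. In macrophages some of these proteins, HSP90 above all, also serve kinases and receptors of innate immune signalling.

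Recovered reads per library were 7.766 to 36.438 M with C-178+CMA, 7.126 to 7.826 M with CMA, 7.049 to 28.476 M with C-178 and 13.907 to 17.449 M in unstimulated cells, so that every CMA library was shallower than every unstimulated one. Macrophage markers were high throughout, with 14 of 14 above 100 normalised counts in unstimulated cells and Lyz2, the lysozyme gene, highest at 211552. Part of the label text speaks of MEF populations, and 14 fibroblast markers summed to 631 to 1441 normalised counts with C-178+CMA, 1221 to 2197 with CMA, 1190.0 to 1352 with C-178 and 926 to 1012 in unstimulated cells. Of these 14 markers 4 were above 100 in unstimulated cells and 0 were absent from all libraries. The C-178+CMA library with the lowest sum was library 3. Neutrophil markers summed to 681 to 1205 with C-178+CMA, 1033 to 1170.2 with CMA, 1104 to 1113 with C-178 and 1035 to 1437 in unstimulated cells, lymphoid markers to at most 40.3 and dendritic cell markers to at most 103 in any library. The sum of fibroblast markers was thus higher, and depth lower, in every CMA library than in every unstimulated one. Single markers differed in direction: of 13 tested with CMA against unstimulated cells, 3 were called higher and 1 lower, and 8 had a log2 change above 0. The part of these markers and of depth in the results below was not tested. In bulk RNA, fewer cells of a type and less RNA per cell cannot be told apart.

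The first question was what the agonist did to the chaperone genes. With CMA, Hsp90aa1, the stress-inducible cytosolic HSP90, was 1.41-fold and Hspd1, the mitochondrial HSP60, 1.33-fold as high as in unstimulated cells. Hspa1a, a stress-inducible HSP70, also passed the threshold, at very low levels, but it entered the test only through libraries that had received CMA, so its call is in part set by the filter. These 3 of 10 genes were called higher and 0 lower (limma, adjusted p under 0.05), where 19.4% of all 11440 genes tested were called higher and 17.9% lower; with 10 genes, 3 calls (2 without Hspa1a) lie near that background. The median log2 change of the 10 was 0.23, and that of all tested genes was -0.01. The groups did not overlap for 5 of the 10 genes on the higher side (Hspa1a, Hspa1b, Hsp90aa1, Hspd1 and Ahsa1) and for 1 on the lower side (Hspa8), against 31% and 30.9% of all genes. Hspa1b, like Hspa1a, entered the test only through libraries given CMA. The part of these copies in the 5 and in the median of 0.23 is thus in part set by the filter, which Hsp90aa1, Hspd1 and Ahsa1 passed in all libraries.

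The second question was what C-178 changed in cells that also received CMA. Hsp90aa1 was 0.707-fold as high with C-178+CMA as with CMA, the only 1 of the 10 genes called lower, and 0 were called higher, against 13.5% and 10.6% of all genes. Hspd1 lay in groups that did not overlap (818.6 to 970.3 normalised counts with C-178+CMA, 1077 to 1164 with CMA) and missed the threshold (log2 change -0.33 ± 0.12, SE; adjusted p = 0.0601). The groups stood apart on the lower side for 2 of the 10 genes and on the higher side for 0, against 18.5% and 17% of all genes. The median log2 change was -0.05 over the 10 genes and 0.0036 over all tested genes.

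With C-178+CMA against C-178 alone, 1 of the 10 genes was called higher, the low-level HSP70 gene Hspa1b, which also entered the test only through libraries given CMA, and 0 lower, where 13.5% of all genes were called higher and 12.6% lower. The groups did not overlap for 1 gene on the higher side (Hspa1b) and 1 on the lower side (Hsph1), against 16.8% and 17.2% of all genes. Against unstimulated cells, C-178+CMA gave 0 calls in either direction, with 11.1% and 10.5% of all genes called. There, 1 gene (Hspa1a) had an unadjusted p under 0.05 in limma, edgeR called 0 and DESeq2 called 1. The groups stood apart for Hspa1b on the higher side and for 0 genes on the lower, against 16.9% and 17.6% of all genes. C-178 alone against unstimulated cells also gave 0 calls, with 0.0962% of all genes called higher and 0% lower, 0 genes at an unadjusted p under 0.05, and 0 calls by edgeR or DESeq2. There the groups stood apart for Hsph1 on the higher side and for 0 genes on the lower, against 7.87% and 7.68% of all genes. The change with C-178 differed according to whether CMA was present for 1 gene, Hsp90aa1, called lower in the interaction, where 3.95% of all genes were called higher and 5.99% lower. Because these comparisons share groups of libraries, their results are not independent of each other.

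**Figure D1:**
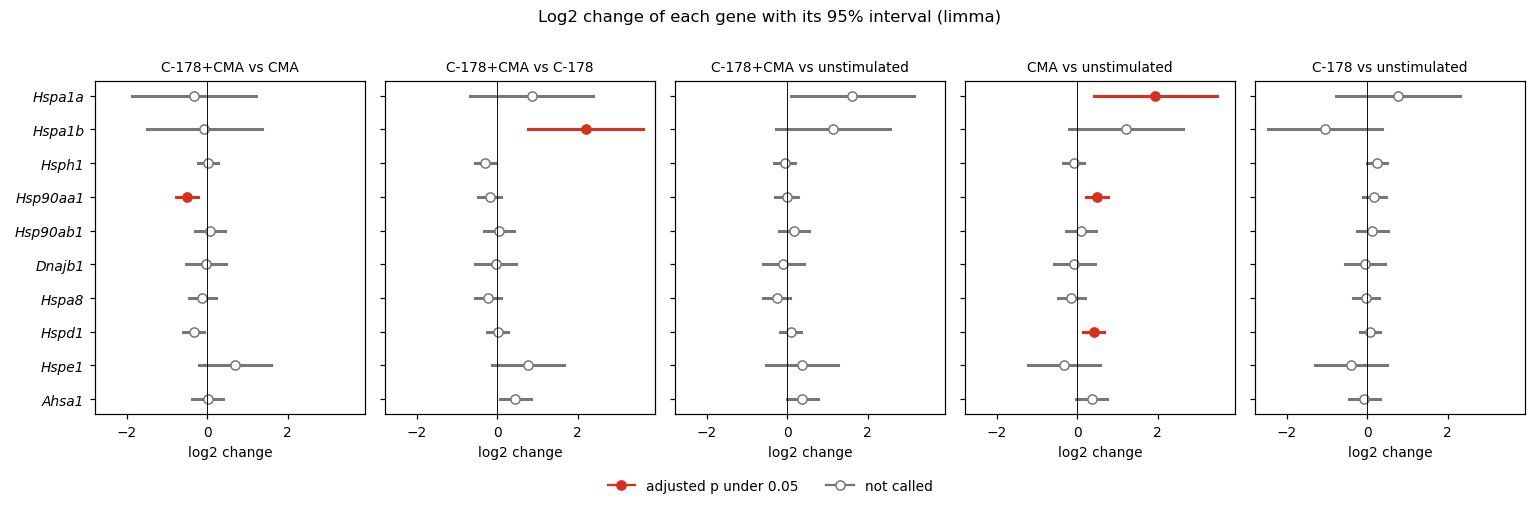
Log2 change of each of the 10 genes (points) with its 95% interval from limma (lines) in 5 comparisons of 3 against 3 libraries, with genes called at adjusted p under 0.05 in red. Hsp90aa1 is called in CMA against unstimulated cells and, with the opposite sign, in C-178+CMA against CMA, and the intervals of Hspa1a, Hspa1b and Hspe1 are the widest.

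Levels per kilobase of exon differed widely among the 10 genes in unstimulated cells. Hsp90ab1, the constitutive cytosolic HSP90, stood highest with 3831 ± 192 normalised counts per kb (SD, n = 3), ahead of Hspa8, the constitutive HSP70, with 3009.7 ± 30.4 per kb. Ahsa1, which activates the ATPase of HSP90, followed at 549.9 ± 16.8 per kb. Hspd1 at 321 ± 10.6 per kb and Hsp90aa1 at 308 ± 16.3 per kb overlapped in their libraries, so these neighbours in the order did not differ beyond their spread. So did Hspe1, the HSP10 lid of HSP60, at 75.9 ± 23.9 per kb and Dnajb1, the J-domain partner of HSP70, at 72.6 ± 9.34 per kb. Hsph1, an HSP110 protein that exchanges nucleotide on HSP70, lay below them at 57.1 ± 2.67 per kb. The stress-inducible HSP70 genes were far lower, Hspa1b at 1.81 ± 0.281 per kb and Hspa1a at 0.901 ± 0.596 per kb. Few reads therefore decide the values of these last 2 genes. Their levels would be understated if reads that fit both genes were left uncounted, which the sources used here do not state.

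**Figure D2:**
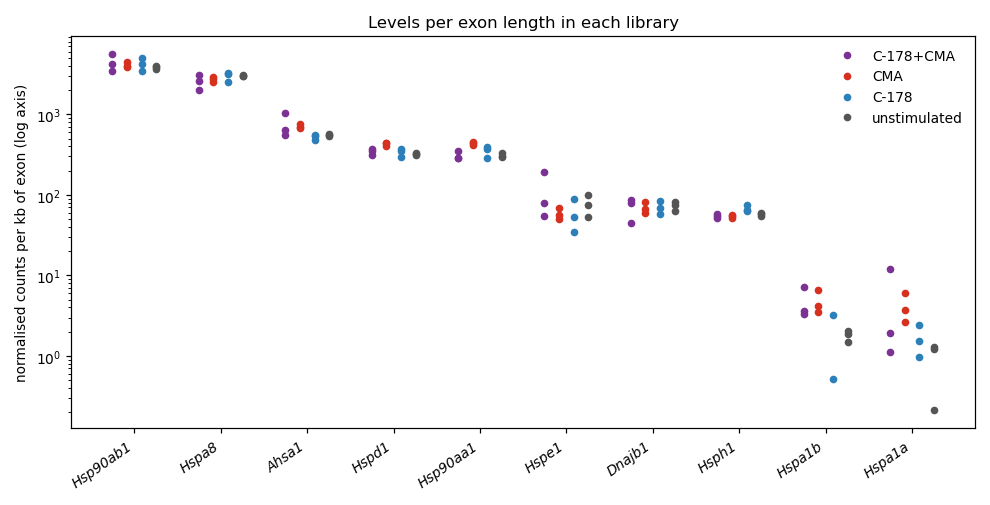
Normalised counts per kb of exon of the 10 genes in each library, on a log axis, with genes ordered by their mean in unstimulated cells and a point per library. Hsp90ab1 and Hspa8 lie highest and Hspa1a and Hspa1b lowest in every library; 1 C-178 library without a read of Hspa1b has no point.

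Hspa1a (chr17:34969190-34972156, minus strand, mm10) and Hspa1b (chr17:34956436-34959238, minus strand) are neighbouring copies of a single exon each, with 9951 bases between them. Of the windows of 50 bases in the Hspa1a transcript, 58.8% occur unchanged in that of Hspa1b, the longest identical run being 638 bases, so the split of reads between the copies is uncertain. Their promoters are nearly the same too. The sequences below are the 250 bases before the RefSeq start in GRCm38.p6. They are shown because these members hold a match to alternating units of a heat shock element in that window, with the match in capitals. Binding of HSF1 was not measured. In both Hspa1 windows the match has only 2 units and ends 97 bases before the start. These windows differ at 3 of 250 positions (Hspa1a chr17:34972157-34972406, Hspa1b chr17:34959239-34959488, minus strand). In Hsph1 (chr5:149636337-149636586, minus strand) the match also has only 2 units and ends 26 bases before the start. In the other Hsph1 window (chr5:149636316-149636565), which is not shown, it ends 47 bases before the start. In Hspe1 (chr1:55087898-55088147, plus strand) 4 alternating units in a row form a longer match that ends 72 bases before the start.
Hspa1a: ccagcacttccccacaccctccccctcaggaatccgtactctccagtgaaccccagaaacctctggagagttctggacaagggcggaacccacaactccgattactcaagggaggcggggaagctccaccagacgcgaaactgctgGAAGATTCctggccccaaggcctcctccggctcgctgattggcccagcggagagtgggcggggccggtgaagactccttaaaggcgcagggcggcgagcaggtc
Hspa1b: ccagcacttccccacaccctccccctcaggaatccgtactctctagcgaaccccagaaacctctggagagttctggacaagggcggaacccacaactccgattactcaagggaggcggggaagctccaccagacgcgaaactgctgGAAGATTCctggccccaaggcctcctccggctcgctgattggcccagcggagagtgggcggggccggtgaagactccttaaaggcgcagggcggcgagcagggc
Hsph1: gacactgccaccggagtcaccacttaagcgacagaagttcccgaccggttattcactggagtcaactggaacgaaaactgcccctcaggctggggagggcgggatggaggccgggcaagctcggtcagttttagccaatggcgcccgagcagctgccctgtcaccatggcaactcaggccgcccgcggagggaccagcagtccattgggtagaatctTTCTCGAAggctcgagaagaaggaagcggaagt
Hspe1: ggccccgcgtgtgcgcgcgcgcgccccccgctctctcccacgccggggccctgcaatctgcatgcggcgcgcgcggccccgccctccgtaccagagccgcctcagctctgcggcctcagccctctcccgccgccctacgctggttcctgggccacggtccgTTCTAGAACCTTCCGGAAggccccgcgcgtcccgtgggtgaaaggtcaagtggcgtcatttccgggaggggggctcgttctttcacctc
The motifs searched were GAANNTTC and TTCNNGAA, each its own reverse complement, and the longer forms of 3 alternating units, GAANNTTCNNGAA and TTCNNGAANNTTC, reverse complements of each other that contain both short ones. A window was available for 7 of the 10 genes (Hsp90aa1, Hsp90ab1 and Hspa8 had none). These 7 genes had 10 windows, 2 each for Hsph1, Dnajb1 and Hspd1, and a gene was counted if any of its windows held the motif. Of these 7 genes, 5 held a motif and 2, Hspd1 and Hspe1, the longer form, which is the same stretch read from either side of the shared promoter. The windows of Hspa1a and Hspa1b are near copies of each other, so the 5 genes are not 5 separate cases. In Hspd1 only 1 of the 2 windows held the longer form. The shares that follow count windows and not genes. Across 32851 promoter windows of the same length, 12.8% held a motif and 0.466% the longer form. The windows of Dnajb1 and Ahsa1 held none of these motifs. The Ahsa1 window (chr12:87266478-87266727) lies almost wholly inside the annotated gene, which starts at 87266479. Of the 2 Dnajb1 windows, 1 (chr8:83608298-83608547) lies inside the gene, which starts at 83608193. Sequence before the annotated gene start was thus searched in the other Dnajb1 window and hardly at all for Ahsa1.

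The inducible HSP70 genes gave the least certain values. Hspa1a stood at 3.32, 5.71 and 35.1 normalised counts in C-178+CMA libraries 1 to 3, at 18.1, 7.89 and 11.0 with CMA, at 7.17, 4.52 and 2.91 with C-178, and at 3.80, 3.58 and 0.633 in the unstimulated libraries 1, a and b. These values came from 10, 4 and 23 reads with C-178+CMA, 11, 4 and 6 with CMA, 20, 3 and 2 with C-178, and 5, 6 and 1 in unstimulated cells. Every CMA library was above every unstimulated one, while C-178+CMA ran from below the highest unstimulated library to the highest value of all 12. The log2 change with CMA against unstimulated cells was 1.94 ± 0.71 (SE; limma adjusted p = 0.046). That call is weak: it was lost in 14 of 21 alternatives (adjusted p 0.00816 to 0.183), among them edgeR (0.0837) and the omission of any CMA, C-178 or unstimulated library (0.054 to 0.183). With C-178+CMA the log2 change was 1.62 ± 0.71 against unstimulated cells (adjusted p = 0.127) and -0.32 ± 0.71 against CMA (adjusted p = 0.76).

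Hspa1b was at 9.28, 9.995 and 19.9 normalised counts with C-178+CMA, at 9.89, 11.8 and 18.4 with CMA, at 8.96, 0 and 1.45 with C-178, and at 5.32, 4.18 and 5.69 in unstimulated cells. The library at 0 is C-178 library 2, where 3 reads would be worth 4.52 normalised counts. All 3 C-178+CMA libraries exceeded all C-178 and all unstimulated libraries. Against C-178 the log2 change was 2.20 ± 0.66 (SE; adjusted p = 0.0258), which rests on 28, 7 and 13 reads against 25, 0 and 1. The call was lost in 7 of 22 alternatives (adjusted p 0.00128 to 0.167). Among these were edgeR (log2 change 1.09, adjusted p = 0.167) and DESeq2 (log2 change 1.43, adjusted p = 0.112). It was also lost without C-178 library 2 (0.116) or 3 (0.0753) and without C-178+CMA library 3 (0.0707), and it held with the replicate number as a block (0.0439). With CMA against unstimulated cells the log2 change was 1.21 ± 0.66 (adjusted p = 0.171).

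Adding the copies removes the question of how counted reads were split. It does not restore reads that fit both copies if these were left uncounted, which the sources used here do not state. The sum of the copies was 12.6, 15.7 and 55.0 normalised counts with C-178+CMA, 28.0, 19.7 and 29.4 with CMA, 16.1, 4.52 and 4.36 with C-178, and 9.12, 7.76 and 6.33 in unstimulated cells. All 6 libraries that received CMA thus exceeded all 3 unstimulated libraries, and C-178 library 1 lay among the C-178+CMA values. Both copies passed the filter on low values through 3 libraries exactly, all of them given CMA, so a difference from the groups without CMA is in part set by the filter, and the following values are given as a description. The log2 change of the sum was 1.60 ± 0.54 with CMA against unstimulated cells (adjusted p = 0.0305) and 1.55 ± 0.54 with C-178+CMA against C-178 (adjusted p = 0.0483). C-178+CMA against unstimulated cells gave 1.43 ± 0.54 (adjusted p = 0.0754), and C-178+CMA against CMA -0.17 ± 0.54 (adjusted p = 0.831; 95% interval -1.33 to 0.98).

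Hspa8 (chr9:40800984-40810087, plus strand) encodes the constitutive HSP70 of the cytosol. It stood at 8674, 11109 and 13185 normalised counts with C-178+CMA, at 12633, 10972 and 11659 with CMA, at 10842, 13462 and 13952 with C-178, and at 12813, 13075 and 12946 in unstimulated cells. The unstimulated libraries agreed to within 1.01% of their mean (coefficient of variation), and every CMA library lay below them. The log2 change with CMA was -0.14 ± 0.16 (adjusted p = 0.514). With C-178+CMA it was -0.26 ± 0.16 against unstimulated cells (adjusted p = 0.268) and -0.12 ± 0.16 against CMA (adjusted p = 0.602). Quantile normalisation, which moved the median of all genes by -0.11 in CMA against unstimulated cells, put Hspa8 at -0.80 there (adjusted p = 0.000901), whereas the other alternatives gave no call.

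Dnajb1 and Hsph1, which work with HSP70 in the cytosol, did not pass the test in any comparison. Dnajb1 (chr8:83608193-83612653, plus strand) had 257, 143 and 277 normalised counts with C-178+CMA, 193, 261 and 213 with CMA, 273, 184 and 219 with C-178, and 201, 237 and 260.0 in unstimulated cells. Its groups overlapped in every comparison, and its log2 changes lay between -0.09 and -0.02 in the 5 comparisons of groups (SE 0.24). Hsph1 (chr5:149614287-149636376, minus strand) had 378, 394 and 419 normalised counts with C-178+CMA, 404, 371 and 395 with CMA, 457, 549.6 and 468 with C-178, and 393, 429 and 424 in unstimulated cells. The C-178 libraries were the 3 highest of the 12. The log2 change of Hsph1 was 0.24 ± 0.12 with C-178 against unstimulated cells (adjusted p = 1) and -0.30 ± 0.12 with C-178+CMA against C-178 (adjusted p = 0.0726). For that second comparison it passed the threshold under quantile normalisation (0.0449) and without C-178+CMA library 3 (0.0489).

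**Figure D3:**
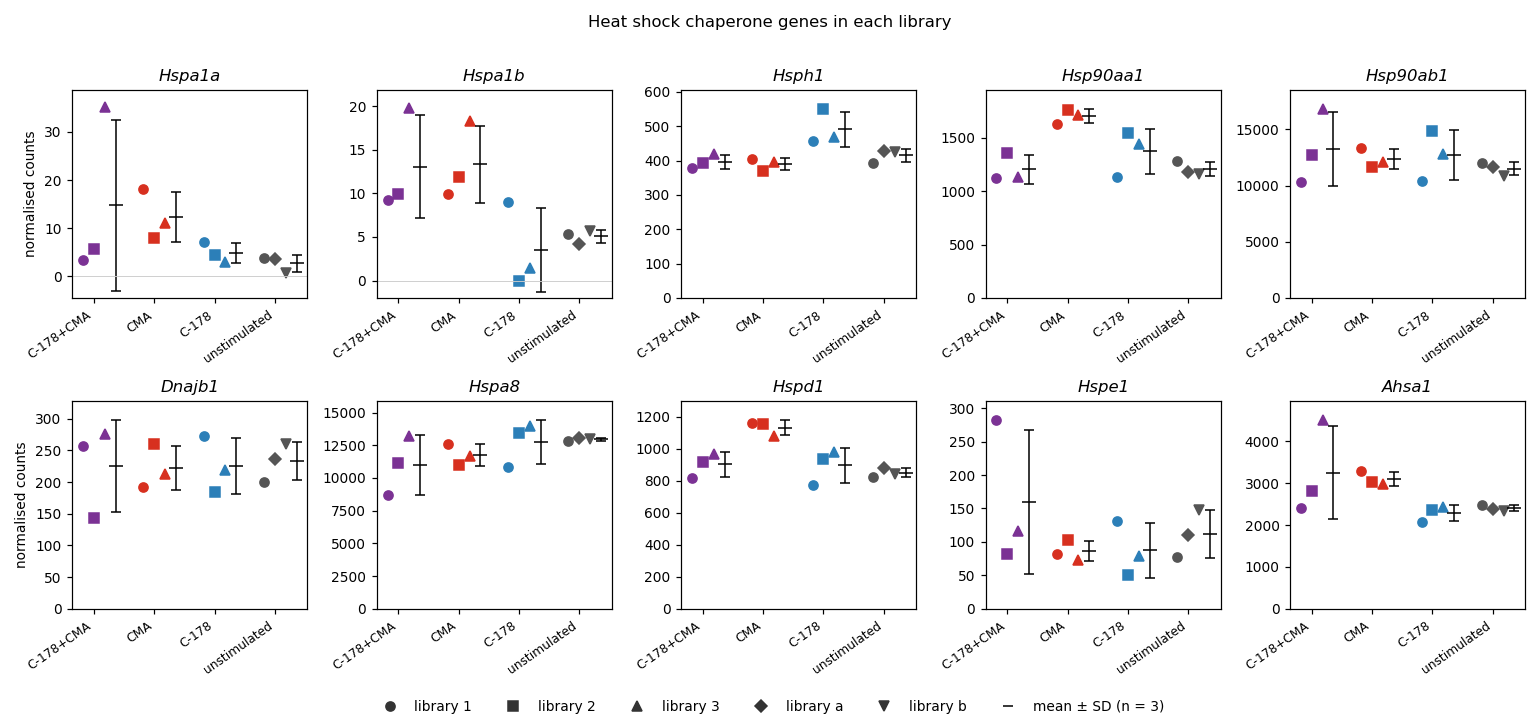
Normalised counts of the 10 genes in each library (points, shapes give the library number) by group, with the mean and SD of 3 libraries; every vertical axis is linear and includes 0. Hsp90aa1 and Hspd1 are highest in the 3 CMA libraries, and C-178+CMA library 3 (triangle) is the highest point of Hspa1a, Hspa1b, Hsp90ab1, Dnajb1 and Ahsa1.

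Hsp90aa1 is the inducible and Hsp90ab1 the constitutive HSP90 gene of the cytosol, and their changes were not tested against each other. Hsp90aa1 (chr12:110690605-110702728, minus strand) was at 1119.7, 1362 and 1137 normalised counts with C-178+CMA, at 1630.0, 1763 and 1713 with CMA, at 1137, 1543 and 1439.9 with C-178, and at 1283, 1181 and 1165 in unstimulated cells. The CMA libraries were the 3 highest of all 12, and 2 of the 3 C-178+CMA libraries lay below every unstimulated one. Hsp90aa1 rose with CMA against unstimulated cells (log2 change 0.49 ± 0.13, SE; adjusted p = 0.00894; higher in 3 of 3 libraries). It fell with C-178+CMA against CMA (-0.50 ± 0.13, adjusted p = 0.0157). Against unstimulated cells, C-178+CMA gave -0.01 ± 0.13 (95% interval -0.29 to 0.27; adjusted p = 0.97). C-178 alone gave 0.17 ± 0.13 (adjusted p = 1), and the interaction was -0.67 ± 0.19 (adjusted p = 0.0378).

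These calls of Hsp90aa1 differ in how they hold. The rise with CMA was lost in 1 of 20 alternatives, quantile normalisation (log2 change 0.24, adjusted p = 0.125; range 0.000108 to 0.125). The fall with C-178+CMA against CMA was lost in 5 of 21 (range 0.00371 to 0.138), namely under quantile normalisation (0.0559), in a fit of these 6 libraries alone (0.0737), with a replicate block (0.138), and without CMA library 2 (0.0638) or 3 (0.0565). The log2 change stayed between -0.59 and -0.34 in all 21. The interaction was lost in 11 of 19 (range 0.00718 to 0.107), under quantile normalisation (0.0757), on thinned reads (0.0542), without any unstimulated library (0.0702 to 0.102), without any CMA library (0.0528 to 0.0978), without C-178 library 2 (0.107) or 3 (0.0883), and without C-178+CMA library 1 (0.064).

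Hsp90ab1 (chr17:45567775-45573271, minus strand) was at 10326, 12679.8 and 16788 normalised counts with C-178+CMA, at 13311, 11631 and 12068 with CMA, at 10441, 14858 and 12765 with C-178, and at 11994, 11615 and 10863 in unstimulated cells. Its groups overlapped in every comparison. The log2 change with CMA against unstimulated cells was 0.10 ± 0.17 (adjusted p = 0.687), and it turned to -0.56 (adjusted p = 0.0179) under quantile normalisation. In C-178+CMA against CMA it was 0.08 ± 0.17 (adjusted p = 0.762), and -0.11 without C-178+CMA library 3.

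Ahsa1 (chr12:87266479-87273998, plus strand) had 2413, 2820.1 and 4512 normalised counts with C-178+CMA, 3286, 3019.8 and 2983 with CMA, 2076, 2356 and 2444 with C-178, and 2487, 2392 and 2342 in unstimulated cells. All 3 CMA libraries were above all 3 unstimulated libraries, by a log2 change of 0.36 ± 0.18 that was not called (adjusted p = 0.134). The spread came from the C-178+CMA group, in which library 3 held 4512. Without that library the same log2 change of 0.36 was called (adjusted p = 0.00959), as it was in a fit of the CMA and unstimulated libraries alone (adjusted p = 0.00104). For C-178+CMA the log2 change was 0.38 ± 0.18 against unstimulated cells (adjusted p = 0.157) and 0.45 ± 0.18 against C-178 (adjusted p = 0.0802), and both passed without C-178+CMA library 1 (0.029 and 0.0149).

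Hspd1 and Hspe1, the mitochondrial pair, were not tested against each other. Hspd1 (chr1:55077835-55088243, minus strand) was at 818.6, 919.6 and 970.3 normalised counts with C-178+CMA, at 1164, 1155 and 1077 with CMA, at 772, 937 and 979 with C-178, and at 826, 880.2 and 842 in unstimulated cells. The CMA libraries were again the 3 highest of the 12. Hspd1 rose with CMA against unstimulated cells (log2 change 0.41 ± 0.12, SE; adjusted p = 0.0145; higher in 3 of 3 libraries). The call was lost in 3 of 20 alternatives (range 0.00053 to 0.122), under quantile normalisation (0.122) and without unstimulated library 1 (0.0523) or CMA library 2 (0.0516). In C-178+CMA against CMA, Hspd1 passed the threshold with DESeq2 (0.0393), without C-178+CMA library 2 (0.0482) or 3 (0.0421) and without C-178 library 1 (0.0482).

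Hspe1 (chr1:55088132-55091307, plus strand) starts inside Hspd1 on the opposite strand, so that 112 bases belong to both genes, and reads there are uncertain since the sources used here do not state the strand setting of the counting. It stood at 282, 81.4 and 116 normalised counts with C-178+CMA, at 82.4, 102.6 and 73.4 with CMA, at 132, 51.2 and 78.5 with C-178, and at 77.5, 109.9 and 148 in unstimulated cells. C-178+CMA library 1 alone held more than any other library, and the groups overlapped in every comparison. The log2 change of Hspe1 was -0.34 ± 0.42 with CMA against unstimulated cells (adjusted p = 0.565), and across the 12 libraries its log2 values correlated at -0.45 with those of Hspd1 (a description over libraries of 4 groups). In C-178+CMA against C-178 it was 0.77 ± 0.42 (adjusted p = 0.19), called with a replicate block (0.0185), as numbers were taken to pair those groups, and without C-178+CMA library 2 (1.15, adjusted p = 0.0438).

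Read one at a time, the C-178+CMA libraries differed in which chaperone genes were high. Library 3 held the highest value of all 12 libraries for 5 of the 10 genes (Hspa1a, Hspa1b, Hsp90ab1, Dnajb1 and Ahsa1), and 18.4% of all tested genes had their highest value there. Hspa1a and Hspa1b passed the filter on low values only through libraries given CMA, library 3 among them. Their place in this count is thus in part set by the filter, and their values in library 3 rest on 23 and 13 reads. It exceeded all unstimulated libraries for 7 genes and lay below them for 1, against 42.4% and 41.9% of all tested genes, with log2 differences from the unstimulated mean of 3.45 for Hspa1a, 1.79 for Hspa1b, 0.91 for Ahsa1 and 0.55 for Hsp90ab1. Hsp90aa1 did not follow in library 3, with a difference of -0.09 from the unstimulated mean and -0.58 from the CMA mean. Library 1 was above all unstimulated libraries for 2 genes and below for 5, against 42.1% and 40.5% of all tested genes. It held the lowest value of the 12 for Hsp90aa1, Hsp90ab1 and Hspa8, and 12.4% of all tested genes had their lowest value there. Its Hspa8 lay 0.58 below the unstimulated mean on the log2 scale (difference -0.58), while its Hspe1 lay 1.38 above. Library 2 was above all unstimulated libraries for 6 genes and below for 2, against 39.1% and 38.2% of all tested genes, and held the lowest Dnajb1 of all 12. Libraries 1 to 3 had 36.438, 8.813 and 7.766 M reads, and fibroblast markers summed to 1375, 1441 and 631, so depth and these markers differ between the same libraries, and their part was not tested.

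The median SD of the 10 genes was 0.41 on the log2 scale with C-178+CMA, 0.10 with CMA, 0.24 with C-178 and 0.07 in unstimulated cells, against 0.34, 0.15, 0.18 and 0.12 over all tested genes. With C-178+CMA the largest SD of a member was that of Hspa1a (1.62) and the smallest that of Hsph1 (0.07).

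**Figure D4:**
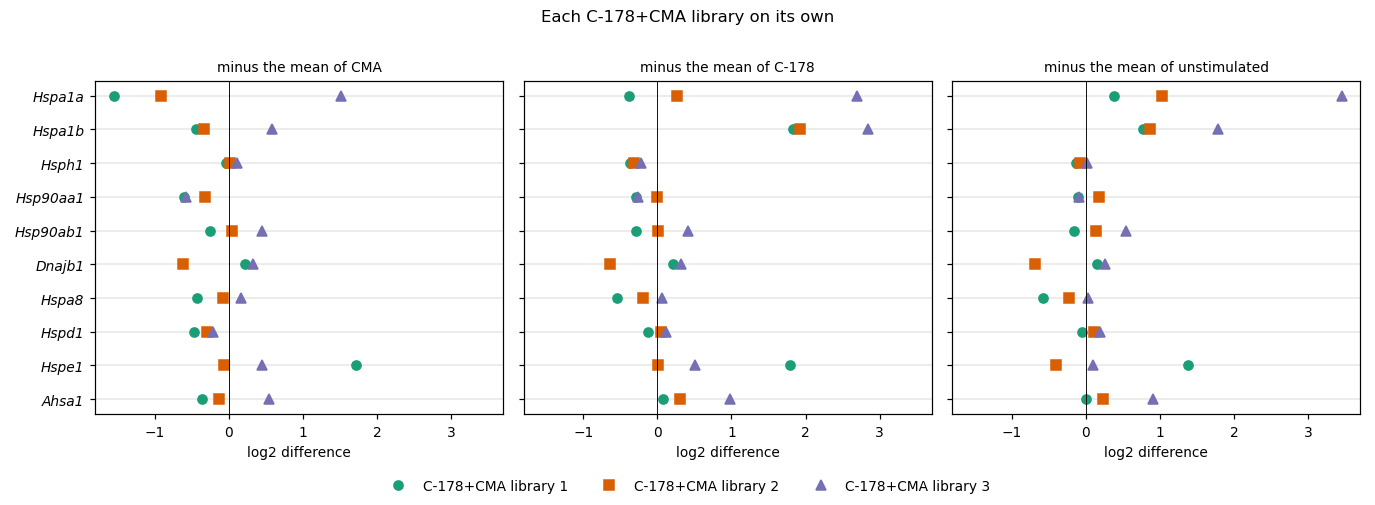
Log2 difference of each C-178+CMA library (1 point per library and gene) from the mean of the CMA, C-178 and unstimulated libraries. Hsp90aa1 and Hspd1 lie left of 0 against CMA in all 3 libraries, library 3 lies furthest right for Hspa1a, Hspa1b, Hsp90ab1, Dnajb1 and Ahsa1, and library 1 for Hspe1.

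Genes of the wider chaperone network were read beside these 10. In 8 further lists (heat shock factors, other HSP70 and HSP110 genes, co-chaperones of HSP70 and of HSP90, small heat shock proteins, TRiC and prefoldin, and chaperones of the endoplasmic reticulum and of mitochondria), 89 genes were tested. With CMA against unstimulated cells 12 of the 89 (13.5%) were called higher and 7 (7.87%) lower, and with C-178+CMA against CMA 4 (4.49%) were higher and 9 (10.1%) lower. None of these shares exceeded that of all tested genes in the same comparison and direction. These counts move with single libraries. For C-178+CMA against CMA, the genes higher numbered 12 without C-178+CMA library 2, 0 without CMA library 2 or 3 or C-178+CMA library 3, 1 without CMA library 1, C-178 library 3, C-178+CMA library 1 or any unstimulated library, and 2 without C-178 library 1, while the genes lower numbered 5 without CMA library 2 or 3. For CMA against unstimulated cells, the genes higher numbered 20 without C-178+CMA library 3, and the genes lower numbered 3 without CMA library 3 and 4 without CMA library 1 or 2 or unstimulated library a or b. A fit of the compared groups only gave 0 higher and 4 lower for C-178+CMA against CMA, and 27 higher and 12 lower for CMA against unstimulated cells. C-178 alone gave 0 calls among the 89 in either direction.

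With CMA against unstimulated cells, the largest log2 changes among the 89 genes were those of Dnajb2 and Dnaja2, J-domain partners of HSP70. Dnaja2 had 3521, 3975 and 2923 normalised counts with C-178+CMA, 6551, 7903 and 7265 with CMA, 1984, 2073 and 2084 with C-178, and 1949.96, 1882 and 1870.2 in unstimulated cells. Every C-178+CMA library lay below every CMA library and above every library without CMA. Dnaja2 rose with CMA against unstimulated cells (log2 change 1.92 ± 0.12, SE; adjusted p = 4e-08) and was lower with C-178+CMA than with CMA (-1.07 ± 0.12, adjusted p = 0.000123), and both calls held in all 20 and 21 alternatives run. Dnajb2 gave 1.93 ± 0.17 (adjusted p = 8.41e-07) and -1.21 ± 0.17 (adjusted p = 0.000447). Dnaja1 gave 1.16 ± 0.13 (adjusted p = 5.97e-06) and -0.38 ± 0.13 (adjusted p = 0.0454), the second of which was lost in 15 of 21 alternatives, among them those without any CMA or unstimulated library, C-178 library 2 or 3, or C-178+CMA library 1 (0.0551 to 0.145). In the other direction, Dnajb14 fell with CMA against unstimulated cells (-0.64 ± 0.12, adjusted p = 0.000832).

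Of the other HSP70 and HSP110 genes, 3 of 5 tested rose with CMA against unstimulated cells, and the same 3 were lower with C-178+CMA than with CMA, where 19.4% of all tested genes were called higher and 13.5% lower. Hspa2, an HSP70 gene best known from the testis, averaged 154 ± 44.3 normalised counts with C-178+CMA, 426 ± 15.8 with CMA, 113 ± 5.31 with C-178 and 143 ± 7.55 in unstimulated cells (SD, n = 3). Its log2 change was 1.56 ± 0.17 with CMA (adjusted p = 7.09e-06) and -1.50 ± 0.17 with C-178+CMA against CMA (adjusted p = 0.000113). Hspa4l, an HSP110 gene, gave 0.87 ± 0.16 and -0.81 ± 0.16 (adjusted p = 0.000566 and 0.00343). Hspa14, which binds the ribosome, gave 1.02 ± 0.10 and -0.47 ± 0.10 (adjusted p = 2.45e-06 and 0.00638). With C-178+CMA against CMA, the call of Hspa14 was lost in 2 of 21 alternatives, a fit of these 6 libraries alone (0.0746) and the same with a replicate block (0.163).

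**Figure D5:**
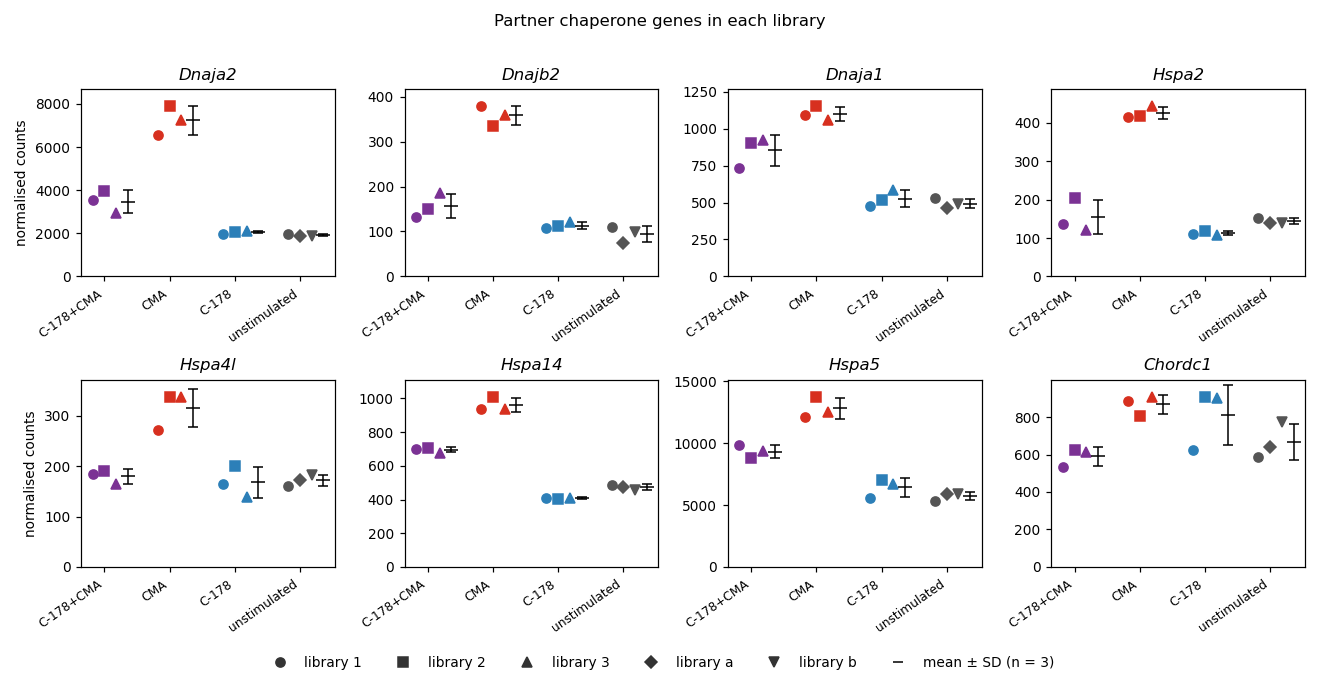
Normalised counts of 8 partner chaperone genes in each library (points, shapes give the library number) by group, with the mean and SD of 3 libraries and linear axes from 0. Dnaja2, Dnajb2, Hspa2, Hspa4l and Hspa14 are highest in the CMA libraries, with the C-178+CMA libraries below them, and Chordc1 is the one whose C-178 and CMA libraries overlap.

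In the endoplasmic reticulum, 3 of 17 tested chaperone genes rose with CMA against unstimulated cells and 0 fell, where 19.4% and 17.9% of all tested genes were called, so this count is near the background. Of the same 17, 1 was higher and 2 were lower with C-178+CMA than with CMA, where 10.6% and 13.5% of all tested genes were called. Hspa5, the HSP70 of that compartment (BiP), averaged 9312 ± 511 normalised counts with C-178+CMA, 12803 ± 856 with CMA, 6433 ± 773 with C-178 and 5725 ± 310.4 in unstimulated cells, with log2 changes of 1.16 ± 0.12 for CMA against unstimulated cells (adjusted p = 4.06e-06) and -0.46 ± 0.12 for C-178+CMA against CMA (adjusted p = 0.0168). The second call was lost in 5 of 21 alternatives (range 0.00131 to 0.332), among them those without CMA library 2 (0.0759) or 3 (0.0525). Dnajc3, its J-domain partner, rose with CMA by 0.47 ± 0.13 (adjusted p = 0.0128) and was lower with C-178+CMA than with CMA (-0.40 ± 0.13, adjusted p = 0.0457). The first of these calls of Dnajc3 was lost without unstimulated library 1 (0.0565) and under quantile normalisation (0.288), and the second in 14 of 21 alternatives, among them those without any CMA or unstimulated library, C-178 library 3, or C-178+CMA library 1 (0.0608 to 0.133). Sdf2l1, which works with J-domain proteins in that compartment, averaged 285 ± 112 normalised counts with C-178+CMA, 158 ± 19.0 with CMA, 167 ± 56.1 with C-178 and 209.6 ± 10.2 in unstimulated cells. All 3 C-178+CMA libraries lay above the CMA libraries, and 1 of them lay below the unstimulated libraries. It was higher with C-178+CMA than with CMA (0.78 ± 0.26, adjusted p = 0.0437). That call was lost in 12 of 21 alternatives, among them those without any CMA or unstimulated library, C-178 library 3, or C-178+CMA library 1 or 3 (0.0585 to 0.155).

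Of the 17 co-chaperones of HSP90, 0 rose and 2 fell with CMA against unstimulated cells. Over all tested genes, 19.4% were called higher and 17.9% lower there. The 2 that fell were the phosphatase gene Ppp5c (-0.50 ± 0.15, adjusted p = 0.0178) and Tomm34 (-0.36 ± 0.11, adjusted p = 0.0163). Both calls were lost without CMA library 2 (0.0573 and 0.057) or 3 (0.0554 and 0.0664), that of Ppp5c also without unstimulated library a (0.0572) and that of Tomm34 without unstimulated library b (0.0716). With C-178+CMA against CMA, 1 of the 17 was higher and 1 lower, where 10.6% and 13.5% of all tested genes were called. The lower gene was Chordc1 (-0.55 ± 0.16, adjusted p = 0.0234). It lost its call in 7 of 21 alternatives, among them those without any CMA library or C-178+CMA library 1 (0.0516 to 0.0844).

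TRiC, the cytosolic chaperonin, and prefoldin had 1 of 13 genes called higher and 0 lower with CMA against unstimulated cells. In that comparison 19.4% of all tested genes were called higher and 17.9% lower. The gene was Cct8 (0.33 ± 0.12, adjusted p = 0.035), and its call was lost without any CMA or unstimulated library (0.061 to 0.109). Of 15 mitochondrial chaperones and proteases, 0 rose and 1 fell with CMA, against those same shares of all tested genes. Grpel2, an exchange factor of the mitochondrial HSP70, was the gene that fell (-0.68 ± 0.17, adjusted p = 0.00553), in all 20 alternatives too. With C-178+CMA against CMA, 2 of these 15 were higher and 0 lower, where 10.6% and 13.5% of all tested genes were called. The protease gene Clpp was higher (0.90 ± 0.27, adjusted p = 0.0282), a call lost without CMA library 2 or 3 or C-178+CMA library 1 or 3 (0.0717 to 0.0975). Dnaja3, a mitochondrial J-domain gene, was also higher (0.38 ± 0.12, adjusted p = 0.0412), and its call was lost without any CMA, C-178 or unstimulated library or C-178+CMA library 3 (0.0503 to 0.139).

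The gene of the heat shock regulator HSF1 was not called. Hsf1 averaged 359.8 ± 99.2 normalised counts with C-178+CMA, 306 ± 7.69 with CMA, 279.7 ± 23.8 with C-178 and 301 ± 30.9 in unstimulated cells, with a log2 change of 0.03 ± 0.17 for CMA against unstimulated cells (adjusted p = 0.919) and 0.20 ± 0.17 for C-178+CMA against CMA (adjusted p = 0.403). HSF1 is controlled mainly at the protein level, which these data do not measure. Hsf4, with few reads at 9.20 ± 2.62 normalised counts with CMA against 17.8 ± 3.24 in unstimulated cells, was called lower (-0.90 ± 0.30, adjusted p = 0.0294). That call was lost in 7 of 20 alternatives, among them those without any unstimulated library or CMA library 1 or 3 (0.0545 to 0.131). Only 2 of 9 small heat shock protein genes were tested, Hspb6 and Cryab, and 0 were called in either comparison. Over all tested genes, 19.4% were called higher and 17.9% lower with CMA against unstimulated cells. The shares were 10.6% and 13.5% with C-178+CMA against CMA.

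Across the 12 libraries, the tested genes whose log2 values were most like the sum of Hspa1a and Hspa1b were Tmem192 and Cops7a (Pearson r = 0.93 each), Kctd13 (0.93), Rnf157 (0.91) and Rrp7a (0.90). Most like the mean z-score of the 10 members were Nupr1 (0.97), Nop56 (0.96), Decr1, Ttc1 and Bcl2a1b (0.94 each). Among members, Hsp90aa1 and Hspd1 correlated at 0.85 and Hspa1a and Ahsa1 at 0.82, whereas Hspa1b and Hsph1 correlated at -0.81. These values describe 12 libraries that share groups and differ in depth.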

How the data were processed

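Poly(A) mRNA of 12 macrophage libraries was made into stranded libraries, per the labels' protocols, and the submitters' processing notes name Bowtie2 2.2.1, limma 3.18.13 and the mm10 build, while the counting tool, annotation and strand setting were not found in the sources used. The deposited signal values are gene counts that the authors divided by a size factor per library, per the file headers and the values: in every library 100% of values were whole multiples of the worth of 1 read within 0.01, and 1 read was worth 0.332 to 1.97 normalised counts. Cook's distances, in 12 further columns, were left aside. Unstimulated columns that share a heading are called a and b.

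Genes with over 10 normalised counts in at least 3 of 12 libraries (11440 genes; 10 of 10 members) were tested on log2(value + 1) with limma 3.58.1 in R 4.3.3 (lmFit on 4 group means, eBayes with trend, Benjamini-Hochberg adjustment within each comparison, call at adjusted p under 0.05). A fold change on this scale can understate changes of low genes. For Hspa1b in C-178+CMA against C-178 it was instead the larger value, 4.59-fold against a ratio of group means of 3.76. Alternatives were a pseudocount of 10, no filter, quantile normalisation, TMM, edgeR 4.0.16 and DESeq2 1.42.0 on the recovered reads, the compared groups only, a replicate block, each library left out, and reads thinned to the shallowest library (the last chosen after seeing the data, as was running all of these for partner genes). Code was tested on simulated data. Numbers were taken to pair C-178+CMA with C-178, since same-numbered libraries deviated together (r = 0.45, 0.43 and 0.26 over genes). Library 1 was also the deepest of both groups (36.438 and 28.476 M reads). The part of depth in these correlations was not tested, so the pairing is an assumption.

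The members and lists were chosen with earlier results of these data known. Named genes are all members and, of each list, up to 4 tested genes by smallest adjusted p, with the heat shock factor Hsf1. Not every gene this rule names is reported here. Levels per kb use GENCODE M21 exon lengths. Promoters are from RefSeq. Figures used matplotlib 3.10.9.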

Additional observations from a re-analysis of the deposited data

Results flagged for a closer look

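The change of Hsp90aa1 with C-178 differed between cells with and without CMA by the test of the difference itself: -0.67 on the log2 scale (SE 0.19; limma adjusted p = 0.0378). C-178+CMA against CMA gave -0.50, lower in 3 of 3 libraries, and C-178 against unstimulated cells gave 0.17. The C-178 libraries fell on both sides: 2 of 3 lay above all unstimulated ones, and C-178 library 1 lay below them all (1137 against 1165 to 1283 normalised counts). The adjusted p ranged from 0.00718 to 0.107 over 19 alternatives and missed the threshold in 11 of them.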

How the results depend on the processing

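Of 1222 log2 changes of members under alternatives, 1097 kept their direction and their side of the threshold, 41 lost a call, 21 gained one and 63 changed sign. Where the members called lower were 1 for C-178+CMA against CMA, there were 0 under quantile normalisation, 2 with DESeq2, 0 with the compared groups only, 0 with the replicate block added, and 0 to 2 without one library. Members higher for C-178+CMA against C-178 (1) numbered 0 with edgeR, 0 with the compared groups only, 2 with the replicate block, 0 on thinned reads and 0 to 2 without one library; members lower (0) numbered 2 under quantile normalisation and 0 to 1 without one library. For C-178+CMA against unstimulated cells, DESeq2 gave 1 higher (0), quantile normalisation 1 lower (0), and single omissions 0 to 2 higher. For CMA against unstimulated cells, members higher (3) numbered 0 under quantile normalisation, 5 with the compared groups only, 2 with a pseudocount of 10, no filter, edgeR or thinned reads, and 1 to 4 without one library (1 without unstimulated library 1 or CMA library 2), and members lower (0) numbered 2 under quantile normalisation. The member lower in the interaction (1) was 0 under quantile normalisation, 0 on thinned reads and 0 to 1 without one library. Changed signs with DESeq2 were 0.15 for Hspa1a (C-178+CMA against CMA), 0.027 for Dnajb1 (C-178+CMA against CMA). Changed signs under quantile normalisation were 0.074 for Hspa1b (C-178+CMA against CMA), 0.12 for Hspa8 (C-178+CMA against CMA), -0.32 for Hsp90ab1 (C-178+CMA against C-178), -0.016 for Hspd1 (C-178+CMA against C-178), -0.24 for Hsp90ab1 (C-178+CMA against unstimulated), -0.56 for Hsp90ab1 (CMA against unstimulated), 0.25 for Hsp90ab1 (interaction), -0.0032 for Dnajb1 (interaction), 0.17 for Hspa8 (interaction). Changed signs on thinned reads were 0.060 for Hspa1b (C-178+CMA against CMA), 0.046 for Dnajb1 (C-178+CMA against CMA), 0.037 for Dnajb1 (C-178+CMA against C-178), 0.012 for Dnajb1 (C-178+CMA against unstimulated). Changed signs with edgeR were 0.054 for Dnajb1 (C-178+CMA against CMA), 0.0055 for Dnajb1 (C-178+CMA against C-178), 0.14 for Hspa1b (C-178 against unstimulated), -0.28 for Hspa1b (interaction). Changed signs with TMM factors were -0.012 for Hspd1 (C-178+CMA against C-178). Changed signs for the sum of the copies were -0.12 for Hspa1a (C-178 against unstimulated), -0.054 for Hspa1b (interaction). Leaving out one library gave -1.24 to 0.30 for Hspa1a (C-178+CMA against CMA), -0.39 to 0.17 for Hspa1b (C-178+CMA against CMA), -0.013 to 0.060 for Hsph1 (C-178+CMA against CMA), -0.11 to 0.24 for Hsp90ab1 (C-178+CMA against CMA), -0.20 to 0.27 for Dnajb1 (C-178+CMA against CMA), -0.26 to 0.044 for Hspa8 (C-178+CMA against CMA), -0.25 to 0.21 for Ahsa1 (C-178+CMA against CMA), -0.059 to 1.47 for Hspa1a (C-178+CMA against C-178). It also gave -0.13 to 0.22 for Hsp90ab1 (C-178+CMA against C-178), -0.21 to 0.26 for Dnajb1 (C-178+CMA against C-178), -0.089 to 0.084 for Hspd1 (C-178+CMA against C-178), -0.10 to 0.042 for Hsp90aa1 (C-178+CMA against unstimulated), -0.0048 to 0.35 for Hsp90ab1 (C-178+CMA against unstimulated), -0.27 to 0.20 for Dnajb1 (C-178+CMA against unstimulated), -0.15 to 0.74 for Hspe1 (C-178+CMA against unstimulated), -0.19 to 0.026 for Dnajb1 (CMA against unstimulated). It also gave -0.20 to 0.080 for Dnajb1 (C-178 against unstimulated), -0.10 to 0.082 for Hspa8 (C-178 against unstimulated), -0.24 to 0.12 for Hsp90ab1 (interaction), -0.14 to 0.33 for Dnajb1 (interaction), -0.23 to 0.075 for Hspa8 (interaction), -0.17 to 0.28 for Ahsa1 (interaction).

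No paired analysis was possible because the unstimulated columns carry no full set of numbers for comparisons with unstimulated cells and the interaction. The replicate block ended the call of Hsp90aa1 for C-178+CMA against CMA (adjusted p = 0.138), where numbers share no sign of pairing (r = -0.14, 0.18 and -0.16), and added Hspe1 for C-178+CMA against C-178 (adjusted p = 0.0185). The block changed no other call of a member.

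Counts over all genes moved more. The compared groups only gave 261 higher and 593 lower calls for C-178+CMA against CMA (284 and 747 with the replicate block, against 1217 and 1543 with all libraries), 738 and 600 for C-178+CMA against C-178 (1548 and 1440), 809 and 722 for C-178+CMA against unstimulated cells (1265 and 1199), 3075 lower for CMA against unstimulated cells (2047), and 27 and 4 for C-178 against unstimulated cells (11 and 0; 34 and 4 with DESeq2). For C-178+CMA against CMA there were 2179 and 2532 without C-178+CMA library 2, 597 and 747 without CMA library 2, and 602 and 835 without CMA library 3. The interaction (452 and 685) had 767 higher with DESeq2, 293 higher with no filter, 1681 and 2018 without C-178+CMA library 2, and down to 122 and 209 without another library. The cause of these differences was not tested. Depth limits Hspa1a and Hspa1b, since 3 reads were worth up to 5.92 normalised counts.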

Other observations

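With C-178+CMA against C-178 alone, 12 of the 89 further chaperone genes were higher (13.5%) and 5 lower (5.62%), where 13.5% and 12.6% of all tested genes were called. By list, 4 of 16 HSP70 co-chaperones were higher and 4 lower, 3 of 13 TRiC and prefoldin genes were higher and 0 lower, and 3 of 17 chaperones of the endoplasmic reticulum were higher and 1 lower. The other HSP70 and HSP110 genes (5 tested) and the HSP90 co-chaperones (17) had 1 higher and 0 lower each. The heat shock factors (4), small heat shock proteins (2) and mitochondrial list (15) had 0 calls. The median log2 change was 0.33 for TRiC and prefoldin, -0.03 for HSP70 co-chaperones and 0.0068 for all tested genes.

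With C-178+CMA against unstimulated cells, 11 of the 89 were higher (12.4%) and 1 lower (1.12%), against 11.1% and 10.5% of all tested genes. These were 5 higher and 1 lower HSP70 co-chaperones, 3 higher TRiC and prefoldin genes, and 1 higher gene each among the other HSP70 and HSP110 genes, the chaperones of the endoplasmic reticulum and the mitochondrial list. The median log2 change was 0.25 for TRiC and prefoldin, -0.02 for HSP70 co-chaperones and 0.0046 for all tested genes. Both comparisons use the C-178+CMA libraries, and nothing particular to a list was tested.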
